A study of Solea senegalensis with 8 samples.

Results

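miR-204 and miR-211 are 2 of the 320 miRNAs listed for Senegalese sole (Solea senegalensis), a flatfish, and were chosen by name as a pair of closely related miRNAs known from the eye. Small RNA of whole embryos and whole larvae was sequenced in 8 libraries, 1 for each combination of 4 stages and 2 incubation temperatures. The groups were 75% epiboly (75Ep), 20 somites (20S), newly hatched larvae (Hatch) and the climax of metamorphosis (Met), each at 21°C and at 15°C. All eggs came from captive broodstock that spawned naturally. The temperatures applied to the embryo only, since per the study's methods all larvae were reared at a common temperature near the warmer one after hatching. Each library was a pool of triplicate samples of whole animals, so no eye was dissected and no spread between fish can be seen. A change in a level may be fewer cells of a type or less of the miRNA per cell, which cannot be told apart here.

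miRNAs are short RNAs that pair with messenger RNAs, mainly through a stretch near their 5′ end called the seed, and lower the output of those messengers. miR-204 and miR-211 share a seed and have nearly the same mature sequence. In mammals miR-204 is carried in an intron of TRPM3 and miR-211 in an intron of TRPM1. Both are abundant in mammalian retinal pigment epithelium, miR-204 also in the lens and ciliary body, and miR-211 in melanocytes. The paper counts miR-211 among the miRNAs that were not known from fish before its own list. In medaka, a small teleost, loss of miR-204 disturbs the lens and the optic fissure. A further row, miR-204b, holds a miRNA whose mature sequence in the study's list differs from that of miR-204 by a single base. It is given beside them.

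The libraries held 2169069 to 4965849 trimmed reads. miRNA reads here are the sum over the 320 miRNAs listed. That sum was below the paper's own count of annotated miRNA reads in every library, by the widest margin at Hatch at 15°C. Shares against the paper's count were not computed, and close shares could change order on it. miRNA reads were the smallest part of the trimmed reads at 75Ep, with 6.59% at 21°C and 6.84% at 15°C. At Met they made up 17.9% at 21°C and 46.0% at 15°C. The miR-430 family, which clears maternal messengers in early fish embryos, took 48.6% of the miRNA reads in the 75Ep library at 21°C and 85.3% at 15°C, and 0.00791% at 21°C and 0.00915% at 15°C at Met. The part of these shifts in the results that follow was not tested.

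miR-204 was one of the most abundant miRNAs of the developing sole and was read in all 8 libraries. Summed over the libraries it had 272421 reads, 4.01% of all miRNA reads, and stood 5th of 320 miRNAs. At 75Ep it had 3334 reads at 21°C and 963 at 15°C. At 20S it had 18720 reads at 21°C and 31815 at 15°C. At either temperature the 20S count was several times the 75Ep count, although the 20S libraries were only slightly deeper. At Hatch it had 51832 reads at 21°C and 64745 at 15°C. At Met it had 14058 reads at 21°C and 86954 at 15°C, the widest gap between temperatures in read counts.

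Per trimmed read, which takes out depth, miR-204 was lowest at 75Ep, with 0.154% of the reads at 21°C (95% interval 0.149 to 0.159) and 0.0344% at 15°C (0.0322 to 0.0366). Intervals here are exact Clopper-Pearson and cover counting error only. At 20S it took 0.730% at 21°C and 0.958% at 15°C. At Hatch it took 1.59% at 21°C and 1.50% at 15°C. Both Hatch libraries were above both 20S libraries, and both 20S libraries above both 75Ep libraries. At Met it took 0.331% at 21°C (0.326 to 0.336) and 1.75% at 15°C (1.74 to 1.76), the highest share of all. In the order of the 8 shares, the Met library at 21°C thus fell between the 75Ep and 20S libraries, while that at 15°C stood above Hatch. No 2 neighbours in this order had overlapping counting intervals.

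**Figure D1:**
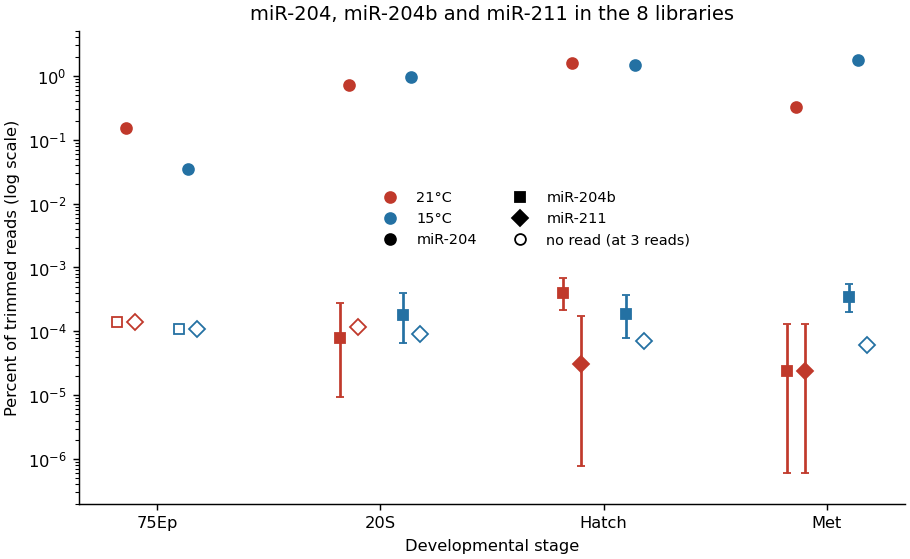
Share of trimmed reads (percent, log axis) of miR-204, miR-204b and miR-211 in each of the 8 libraries by stage, with 21°C in red and 15°C in blue. Bars are exact 95% counting intervals, and open symbols stand at 3 reads where no read was seen. miR-204 lies between 0.0344% and 1.75%, far above both other miRNAs in each library.

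Rank did not follow the share. Among the miRNAs detected in a library, miR-204 ranked 7th of 220 at 75Ep at 21°C and 9th of 218 at 15°C, and it ranked 7th of 254 in both 20S libraries. At Hatch it was 4th of 270 at 21°C and 3rd of 272 at 15°C, its best rank. In that Hatch library at 15°C miR-203a, an epidermal miRNA in mammals, stood directly above it with 1.76% of the trimmed reads, and the muscle miRNA miR-206-3p directly below with 1.17%. At Met it was 16th of 268 at 21°C and 7th of 275 at 15°C. The most abundant miRNA of a library was miR-430d in both 75Ep libraries and miR-130c in both 20S libraries, both Hatch libraries and the Met library at 21°C. In the Met library at 15°C it was miR-192, known from gut and liver.

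miR-211 was at the limit of detection. It had 1 read in the Hatch library at 21°C and 1 read in the Met library at 21°C, and none in the other 6. These put it at rank 250 of 270 and 253 of 268. Its 2 reads placed it 292nd of 320 miRNAs by total, among 29 miRNAs with no more than 2 reads in all. A count of 0 allowed a share, taken as 3 reads of the total, of up to 0.000138% of trimmed reads in the shallowest library and up to 6.04e-05% in the deepest. Its single reads correspond to 3.07e-05% (7.77e-07 to 0.000171) at Hatch and 2.35e-05% (5.96e-07 to 0.000131) at Met, with exact intervals, so no library differed from another beyond counting error.

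miR-204b was also rare, with 47 reads in 6 libraries and place 232 by total. It had no read in either 75Ep library, 2 reads at 21°C and 6 at 15°C at 20S, 13 at 21°C and 8 at 15°C at Hatch, and 1 at 21°C and 17 at 15°C at Met. Against miR-204 it made up 1.73 reads per 10000 miR-204 reads over all libraries (exact interval 1.27 to 2.29). In the 6 libraries with a read this ratio lay between 0.711 and 2.51 per 10000, and the counting intervals overlapped. In the Met library at 21°C, the lowest of the 6, it rested on the 1 read. The counts of 0 at 75Ep allowed a ratio of up to 11.1 per 10000 at 21°C and 38.4 at 15°C. Both limits are above the 1.73 over all libraries, so 75Ep could not be told apart from the later stages in this ratio. miR-211 made up 0.0734 reads per 10000 miR-204 reads (0.00889 to 0.265). The interval of miR-211 lay wholly below that of miR-204b. The 3 miRNAs have nearly the same mature sequence, and how reads that match several of them were assigned is not stated, so their split is uncertain. Whether the reads of miR-211 came from a gene of its own in sole was not tested.

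Stage was compared in limma on log2 percent of trimmed reads with stage and temperature as terms, over the 295 miRNAs that had a read in 2 or more libraries, with Benjamini-Hochberg adjustment across the 295 at 0.05. The 2 temperatures of a stage serve as its libraries. The spread of a miRNA is thus the disagreement between temperatures over the stages, with 3 residual degrees of freedom. limma draws this spread toward that of miRNAs at a similar level. Its p-values, SEs and intervals therefore rest in part on other miRNAs, and not on the spread of miR-204 alone. miR-204 passed the filter through all 8 libraries, and miR-211 only through its 2 libraries with 1 read each. miR-204 rose between 75Ep and 20S, by 3.52 on the log2 scale (SE 1.14, limma adjusted p = 0.0377). In this step 119 of the 295 miRNAs passed (40.3%), 116 of them higher at 20S (39.3%), and the median of all was 2.15, with miR-204 78th from the highest. Between 20S and Hatch miR-204 differed by 0.89 (95% interval -1.73 to 3.50, limma adjusted p = 0.766), where 4 miRNAs passed (1.36%) and the median of all was 0.80. Between Hatch and Met it differed by -1.02 (-3.64 to 1.59, limma adjusted p = 0.547), where 52 passed (17.6%) and the median was 0.51. Neither of these later steps passed the test, with intervals that leave room for several-fold changes in both directions. Against 75Ep, miR-204 was higher at Met by 3.39 (SE 1.14, limma adjusted p = 0.0268), a step in which 203 miRNAs passed (68.8%) and the median of all was 4.07. Over the 4 stages together it passed as well (F = 5.76, limma adjusted p = 0.0312), as did 203 of the 295 (68.8%). The size of the rise of miR-204 was thus above that of the median miRNA by 20S and below it by Met.

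These calls did not hold with each library left out in turn. The difference of 20S from 75Ep was 1.99 without the 75Ep library at 15°C (limma adjusted p = 0.236), 3.35 without the 20S library at 15°C (limma adjusted p = 0.196) and 3.69 without that at 21°C (limma adjusted p = 0.162). It was 3.52 without either Hatch library, with adjusted p of 0.0950 without that at 21°C and 0.0942 without that at 15°C. It passed without each of the other 3 libraries. The difference of Met from 75Ep was 1.86 without the 75Ep library at 15°C (limma adjusted p = 0.189) and 1.88 without the Met library at 15°C (limma adjusted p = 0.195), and 3.39 without either Hatch library (limma adjusted p = 0.0639 without that at 21°C and 0.0635 without that at 15°C). It passed without each of the other 4. Between Hatch and Met the difference was -2.53 without the Met library at 15°C and 0.49 without that at 21°C. With undetected values as deposited the 2 calls were lost as well (limma adjusted p = 0.0949 for 20S and 0.0681 for Met against 75Ep), and with a pseudocount of 5 reads that of 20S (limma adjusted p = 0.0682). With a library left out, the lone library of its stage was assumed to vary like the others. Such a fit had 2 residual degrees of freedom instead of 3. Without either Hatch library the calls were lost with the estimates unchanged. How far the fewer degrees of freedom account for this was not tested.

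The rise depended on the total against which miR-204 was set. As a share of all miRNA reads it took 2.33% at 21°C and 0.502% at 15°C at 75Ep, and 3.27% at 21°C and 4.15% at 15°C at 20S. At Hatch the shares were 5.21% at 21°C and 6.03% at 15°C, and at Met 1.85% at 21°C and 3.81% at 15°C. On this scale Hatch was highest at both temperatures, whereas on trimmed reads the Met library at 15°C was. The Met library at 21°C stood below the 75Ep library at the same temperature. The miR-430 family filled much of the 75Ep total. With it set aside, a scaling chosen after the values were seen, miR-204 took 4.54% of the remaining miRNA reads at 21°C and 3.41% at 15°C at 75Ep. It then took 4.40% at 21°C and 5.49% at 15°C at 20S, 5.47% at 21°C and 6.48% at 15°C at Hatch, and 1.85% at 21°C and 3.81% at 15°C at Met. The 75Ep and 20S values overlapped on this scale, and the low value was that of Met at 21°C.

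**Figure D2:**
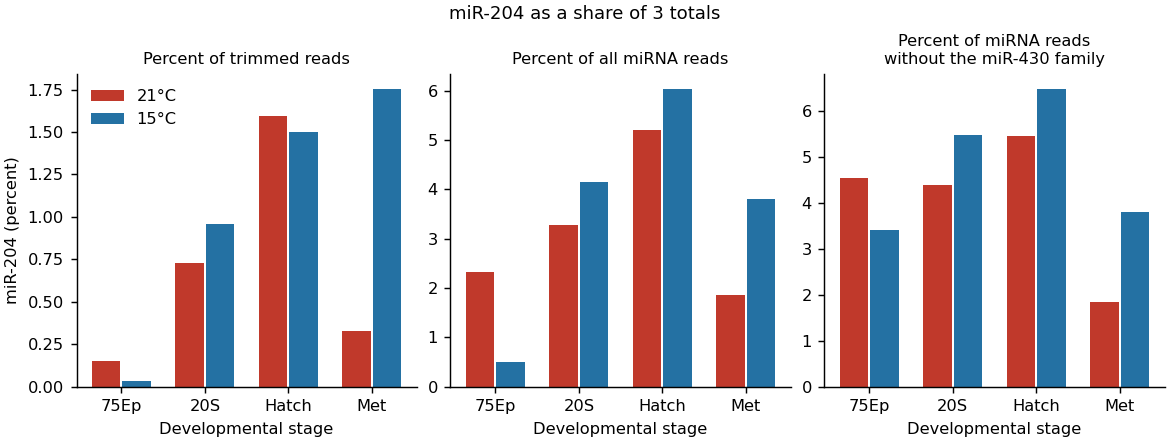
miR-204 as a percent of trimmed reads (left), of all miRNA reads (middle) and of miRNA reads without the miR-430 family (right), by stage, with 21°C in red to the left of 15°C in blue, 1 library per bar. At 75Ep the 2 bars are far below those of Hatch on the left and stand at 4.54% and 3.41% on the right.

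Under these scalings the stage calls of miR-204 did not hold. The difference of 20S from 75Ep was 1.77 on the share of miRNA reads (limma adjusted p = 0.213), 0.32 with miR-430 set aside (limma adjusted p = 0.610) and 1.01 after each library was centred on the median of the miRNAs read in all 8 (limma adjusted p = 0.248). The medians of all 295 were then 1.19, near 0 and -0.37. The difference of Met from 75Ep was 1.29 (limma adjusted p = 0.265), -0.57 (limma adjusted p = 0.304) and -1.07 (limma adjusted p = 0.196) on the same 3 scalings, so its direction turned on the last 2. Calls over all miRNAs moved too. With centring, 63 miRNAs passed between 75Ep and 20S, 32 of them higher at 20S, and 123 passed between 75Ep and Met, 46 of them higher at Met. With miR-430 set aside, 30 of 53 and 83 of 126 were higher at the later stage, and on the share of miRNA reads 44 of 53 and 135 of 159. Between Hatch and Met miR-204 was lower at Met on all 4 scalings, with differences of -1.02 to -1.68. The lowest adjusted p of limma was 0.0863, with centring.

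**Figure D3:**
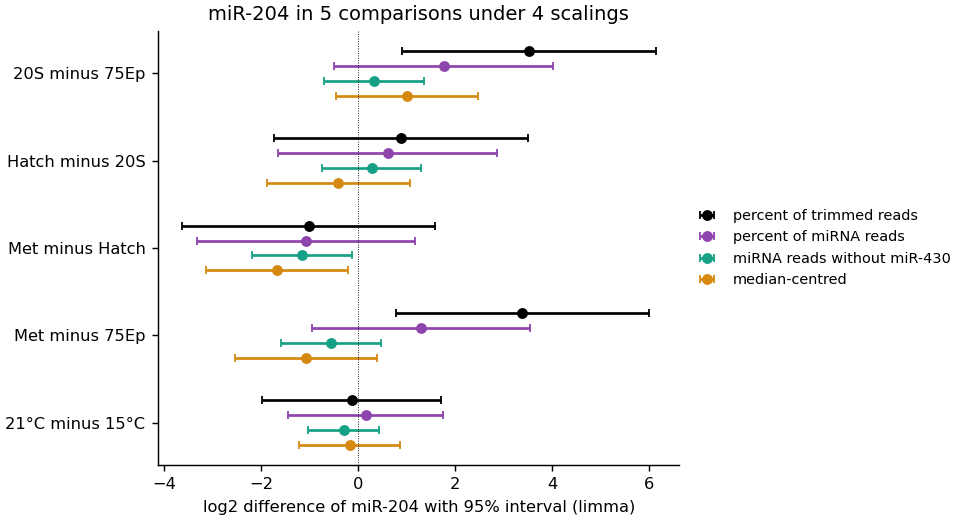
Differences of miR-204 (log2, limma estimate with 95% interval) in 4 stage comparisons and between temperatures, under 4 scalings of the same 8 libraries. The intervals of 20S minus 75Ep (3.52) and Met minus 75Ep (3.39) exclude 0 on the share of trimmed reads and include it on the other 3 scalings.

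For Hatch and Met against 75Ep and 20S, miR-204 averaged 0.12 ± 1.15 in the later stages and -2.02 ± 2.22 in the earlier ones (log2 percent of trimmed reads, SD, n = 4 libraries each). The difference of 2.14 gave p = 0.171 in a two-sided exact permutation test, where 0.0286 is the smallest p that 4 against 4 allows. The libraries of each side came from different stages and temperatures and were no repeats of each other, and the test took no account of either. The difference was 0.95 on the share of miRNA reads and turned to -0.74 with centring (exact permutation p = 0.314 for both). The groups overlapped through the Met library at 21°C.

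On the share of trimmed reads miR-211 passed no stage test. It had no read at 75Ep or 20S, and Met differed from 75Ep by 0.61 with undetected values set 1 log2 unit below a single read (95% interval -1.16 to 2.39, limma adjusted p = 0.502). With centring, Met minus 75Ep was -3.85 (limma adjusted p = 0.0193) and the test over the stages passed (limma adjusted p = 0.0487), although the libraries without a read then differ only by the centre subtracted from a fixed value. These estimates are set by the value given to a count of 0 and by the 2 reads that let miR-211 pass the filter, and say nothing about its level. For miR-204b, 20S was higher than 75Ep by 3.56 (limma adjusted p = 0.0538) and Met by 3.16 (limma adjusted p = 0.0519), which did not pass, while the test over the 4 stages did (limma adjusted p = 0.0400). On the share of miRNA reads these differences were 4.58 (limma adjusted p = 0.0411) and 3.84 (limma adjusted p = 0.0290). With miR-430 set aside they were 4.99 (limma adjusted p = 0.0411) and 3.84 (limma adjusted p = 0.0423). With centring they were 1.04 and -1.31 and did not pass, nor did the test over the stages. Both 75Ep values are again the value given to a count of 0.

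Embryonic temperature gave no shared direction. Over the 4 stages miR-204 differed by -0.14 between 21°C and 15°C (95% interval -1.99 to 1.71, limma adjusted p = 0.998). None of the 295 miRNAs passed (0%) with limma, 8 had an unadjusted p under 0.05, and limma-voom on recovered reads gave 0 and 8 as well. For miR-211, whose 2 reads were both in 21°C libraries and let it pass the filter, the fit is no test of temperature.

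Within a stage, where 1 library stands for each temperature and no test between conditions can be made, miR-204 differed widely. At 75Ep its share of trimmed reads was 4.47-fold higher in the 21°C library (exact interval for counting error 4.16 to 4.81). Of the 117 miRNAs with at least 10 reads in the pair, 98 were higher at 21°C, their median log2 difference was 1.10, and miR-204, at 2.16, stood 22nd from the highest. The ratio was 4.64 on the share of miRNA reads and 1.33 with miR-430 set aside. With centring the log2 difference was 1.24. At 20S the ratio of 21°C to 15°C was 0.762 (0.748 to 0.776), with a log2 difference of -0.39 beside a median of 0.02 over 169 miRNAs. At Hatch it was 1.06 (1.05 to 1.07), with 0.08 beside -0.07 over 191 miRNAs, and the ratio of the shares of miRNA reads was 0.864. At 20S miR-204 was thus lower at 21°C, 126th of the 169 from the highest, and was lower on the other scalings too. Hatch was close to even, and the direction there changed with the total used.

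At Met, miR-204 had 0.189 times the share at 21°C that it had at 15°C (0.186 to 0.192), which is 5.29-fold higher at 15°C. Its log2 difference of -2.40 stood 191st of 206 from the highest. In this pair 14 of the 206 miRNAs were higher at 21°C and the median difference was -1.37, beside the lower share of miRNA reads in the 21°C library (17.9% and 46.0%). Relative to that median miR-204 was lower by a further 1.03 on the log2 scale (-1.03), and as a share of miRNA reads its ratio was 0.487. The larvae of both libraries had been reared at the same temperature since hatching. Per the study's methods they were matched by stage, and those from 21°C were younger in days after hatching. The 21°C library also had the longest average read length of all libraries in the paper. The part of either in this difference was not tested.

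**Figure D4:**
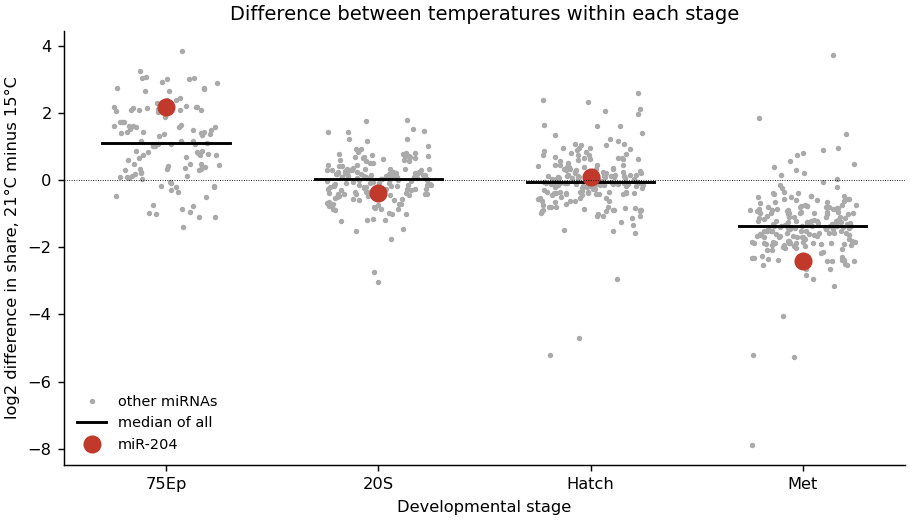
Difference between temperatures (log2 share of trimmed reads, 21°C minus 15°C) within each stage for the miRNAs with at least 10 reads in the pair. Grey points are miRNAs, black lines their medians and red points miR-204. miR-204 lies above the median at 75Ep (2.16 against 1.10), near it at Hatch, and below it at 20S (-0.39 against 0.02) and Met (-2.40 against -1.37).

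miRNAs known from the eye and its neurons gave a frame for these values. The list held 15 rows, all tested, and was chosen with earlier results of these data known. It held miR-204, miR-204b and miR-211, both strands of miR-184 (lens and cornea), miR-182, miR-183 and miR-96 (photoreceptors, and hair cells of the ear), miR-124 (neurons) and miR-9 (neural progenitors). Most of these are also made outside the eye. Between 75Ep and 20S 9 of the 15 rose and none fell, beside 39.3% of all miRNAs that rose and 1.02% that fell, with a median of 3.52 for the list and 2.15 for all. Between 75Ep and Met 10 rose and none fell, beside 63.4% and 5.42% of all, with medians of 4.28 and 4.07. miR-204 is itself 1 of the rows that rose in both comparisons, and the list median of 3.52 is its own difference. The list is thus not independent of miR-204. Under centring these counts were 2 higher at 20S, beside 32 of all 295 miRNAs, and 1 higher and 4 lower at Met, beside 46 and 77. Of those 4, miR-211 and miR-124b had no read at 75Ep, so the value given to a count of 0 and the centre set their direction. On the share of miRNA reads the counts were 4 at 20S, beside 44, and 10 at Met, beside 135. With miR-430 set aside they were 1 at 20S, beside 30, and 4 higher and 1 lower at Met, beside 83 and 43. Among the rows called higher on these totals, miR-204b and miR-124b had no read at 75Ep.

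miR-204 was the most abundant of the list in every library. The lens and cornea miRNA miR-184-3p had 106 reads at 21°C and 76 at 15°C at 75Ep, and 1465 reads at 21°C and 3067 at 15°C at 20S. At Hatch it had 6491 reads at 21°C and 5143 at 15°C, and at Met 2210 at 21°C and 3693 at 15°C. It rose by 4.32 between 75Ep and 20S (limma adjusted p = 0.00652) and differed by -1.31 between Hatch and Met (limma adjusted p = 0.284). The rise passed also with centring and on the share of miRNA reads, but not with miR-430 set aside. On trimmed reads miR-204 and miR-184-3p were both highest on average at Hatch. So were miR-184-5p, miR-124-5p and, on few reads, miR-204b and miR-211. In the 15°C libraries alone miR-204 was highest at Met, with 1.75% against 1.50% at Hatch. The other strand of miR-184, miR-184-5p, had 251 reads at 21°C and 2653 at 15°C at 20S, a wider gap than that of miR-184-3p in the same libraries.

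On the share of trimmed reads, and of miRNA reads, the miRNAs of photoreceptors and hair cells were higher at Met than at 75Ep. As given above, 63.4% of all miRNAs were higher in this comparison, with a median of 4.07, and with centring or with miR-430 set aside none of these rows passed. miR-183 had 44 reads at 21°C and 49 at 15°C at 75Ep, and 2198 reads at 21°C and 8190 at 15°C at Met. Met was higher than 75Ep by 5.62 for miR-183 (SE 0.81), 4.28 for miR-182-5p and 5.44 for miR-96, with limma adjusted p of 0.000508, 0.00113 and 0.000577. The neuronal miR-124-3p differed by 5.95 (limma adjusted p = 0.00106) and the neural miR-9a-3p by 8.08 (limma adjusted p = 0.000220), which had 5 reads at 21°C and 4 at 15°C at 75Ep. With miR-430 set aside both still passed, and with centring miR-9a-3p alone of the list was higher. The other strand, miR-124-5p, differed by -0.30 (limma adjusted p = 0.810) and passed as lower at Met with centring and with miR-430 set aside. On trimmed reads miR-9b-3p was the only row of the list to pass between 20S and Hatch, where it rose by 5.04 (limma adjusted p = 0.0299). It passed also with centring and on the share of miRNA reads, but not with miR-430 set aside. Between Hatch and Met no row of the list passed on trimmed reads. With centring miR-124-5p, miR-184-3p and miR-184-5p were lower at Met, and on the share of miRNA reads and with miR-430 set aside miR-124b was higher, on 1 read at 21°C and 3 at 15°C at Met. Between temperatures no row of the list passed on these 4 scalings. At Met each of the 14 rows with reads in both libraries had a lower share of trimmed reads at 21°C, as did most of the 206 miRNAs, but as a share of miRNA reads 7 were lower at 21°C and 7 higher. The ratio of 21°C to 15°C was 0.314 on trimmed reads and 0.808 on miRNA reads for miR-183, 0.249 and 0.641 for miR-124-3p, and 0.187 and 0.482 for miR-9a-3p. For miR-184-3p it was 0.700 on trimmed reads and 1.80 on miRNA reads, so its direction turned, while that of miR-204 did not (0.189 and 0.487).

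**Figure D5:**
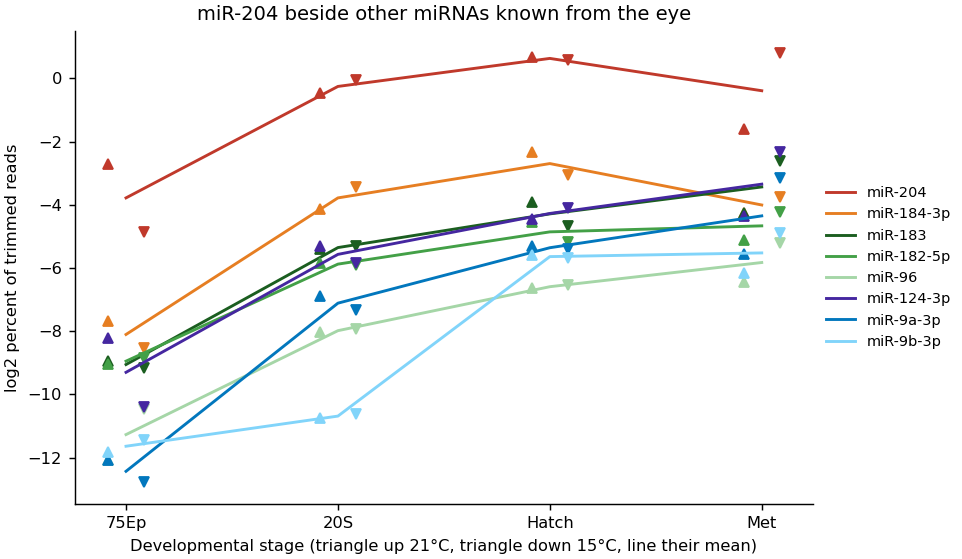
Level (log2 percent of trimmed reads) of miR-204 and 7 other miRNAs known from the eye or from neurons, by stage. Upward triangles are libraries at 21°C, downward triangles those at 15°C, and lines their means. miR-204 lies above the other 7 at each stage and its mean is highest at Hatch, as is that of miR-184-3p. Not all rows of the list are shown, and some left out, among them miR-184-5p and miR-124-5p, were also highest on average at Hatch.

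The 5 miRNAs whose levels followed miR-204 most closely over the 8 libraries were miR-130b-5p (Pearson r = 0.993), miR-19c (0.984), miR-16b (0.983), miR-30c (0.983) and miR-429-3p (0.978). They were taken from 105 miRNAs with at least 10 reads in every library. High values were common, with a median r of 0.862 over the 105 and 44 above 0.9, and the points share the libraries and their totals. miR-130b-5p, the passenger strand of a miRNA of the miR-130 family, was closest also on the share of miRNA reads (0.983) and with centring (0.969). Its reads were 536 at 21°C and 94 at 15°C at 75Ep, 2388 at 21°C and 3634 at 15°C at 20S, 7099 at 21°C and 9276 at 15°C at Hatch, and 2134 at 21°C and 9395 at 15°C at Met. miR-16b fell to 0.681 with centring. Of the 5, 4 stayed among the closest 5 in Pearson correlation on the share of miRNA reads and 3 with centring. By rank (Spearman correlation) the list held less well on trimmed reads and on the share of miRNA reads. On trimmed reads miR-16b and miR-30c then tied at 4th, miR-130b-5p was 8th, and miR-19c and miR-429-3p tied at 22nd of the 105. By rank 2 of the 5 stayed on the share of miRNA reads. With centring miR-429-3p stood 2nd by rank, miR-130b-5p 4th, miR-19c and miR-30c tied at 5th, and miR-16b 47th. miR-211 was read in too few libraries for such a comparison.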

How the data were processed

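Small RNA libraries of whole embryos and larvae (8 libraries, pools of triplicates) were sequenced on the SOLiD platform. The authors clipped adaptors, used BLAST to discard tRNA, rRNA and similar reads, and mapped what remained to miRBase. The deposited log2 values were made by the authors from the percent of a library's trimmed reads that a miRNA took. How reads matching several miRNAs were treated is not given in the sources used here. In each library the lowest value shared by several miRNAs, above the value of undetected miRNAs, was read as 1 read, which gave depth. Values below it were taken as no read. Of the 2033 values above the undetected value, 99.5% were then whole reads within 0.01 read (10 were not). Undetected values were set to -16.60, which is 1 log2 unit below the smallest single read. The test used limma 3.58.1 in R 4.3.3 (variance trend, Benjamini-Hochberg at 0.05) and was checked on simulated data. The simulated counts were independent, without shifts shared by the miRNAs of a library or differences between temperatures, so the check does not cover those. Exact tests and intervals used Python 3.11.15 with scipy 1.17.1, numpy 2.4.6 and pandas 2.3.3, and figures matplotlib 3.10.9. Counting intervals cover counting error only.

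Named miRNAs were miR-204, miR-211, rows with the same numbers, the eye list, the 5 most alike in Pearson correlation, neighbours in rank where miR-204 ranked best, and the most abundant miRNA of a library. Members and lists were chosen with earlier results of these data known. Alternatives were the scaling, the value given to undetected miRNAs, the filter, limma-voom, the variance prior, the covariates, summed rows and leaving out libraries.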

Additional observations from a re-analysis of the deposited data

Results flagged for a closer look

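The difference between temperatures in miR-204 changed sign from each sampled stage to the next. On the share of trimmed reads (log2, 21°C minus 15°C) it was 2.16 at 75Ep, -0.39 at 20S, 0.084 at Hatch and -2.40 at Met. With 1 library per stage and temperature the difference between stages was not tested. As a share of miRNA reads the differences were 2.21, -0.34, -0.21 and -1.04, so Hatch then had the sign of 20S and Met. With miR-430 set aside they were 0.41, -0.32, -0.24 and -1.04. With centring they were 1.24, -0.44, -0.22 and -1.29, so 75Ep and Met were still the extremes. Medians of all miRNAs with at least 10 reads in the pair were 1.10, 0.02, -0.07 and -1.37 on trimmed reads, so the extremes of miR-204 fell in the 2 stages where most miRNAs moved the same way.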

How the results depend on the processing

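For miR-204, 20S minus 75Ep (3.52) and Met minus 75Ep (3.39) were 1.77 (limma adjusted p = 0.213) and 1.29 (limma adjusted p = 0.265) on the share of miRNA reads, 1.01 and -1.07 with centring, and 0.32 and -0.57 with miR-430 set aside, which was added after the data were seen. With undetected values as deposited they were 3.52 (limma adjusted p = 0.0949) and 3.39 (limma adjusted p = 0.0681), and with a pseudocount of 5 reads the first was 3.52 (limma adjusted p = 0.0682). The stage F of 5.76 was 2.68, 4.23 and 3.18 on the 3 scalings, 5.22 with 5 reads and 5.50 with undetected values as deposited, none of them passing. Hatch minus 20S (0.89) was -0.41 with centring, and late minus early (2.14) was -0.74. The temperature difference (-0.14) was 0.16 on the share of miRNA reads, 0.0015 with limma-voom, 0.62 without both Met libraries and -0.90 without both 75Ep libraries (both added after the data were seen). The causes were not tested.

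Leaving out 1 library gave 1.99 to 5.06 for 20S minus 75Ep, 0.72 to 1.06 for Hatch minus 20S, -2.53 to 0.49 for Met minus Hatch, 1.86 to 4.92 for Met minus 75Ep, -0.90 to 0.62 for temperature, 2.01 to 12.12 for F and 1.19 to 2.79 for late minus early. The F lost its call without the 75Ep library at 15°C or any 20S or Hatch library (adjusted p of 0.0552 to 0.200).

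For miR-211, centring gave -2.52 for 20S minus 75Ep (no read in either stage), -0.49 for Hatch minus 20S, -3.85 for Met minus 75Ep (limma adjusted p = 0.0193), an F of 5.41 (limma adjusted p = 0.0487) and -2.17 for late minus early. There, values of libraries without a read differ by the centring alone. limma-voom gave -0.24 for 20S minus 75Ep and -0.11 for Met minus 75Ep. Met minus Hatch (-0.19) was 0.20 on the share of miRNA reads and 0.16 with miR-430 set aside. Leaving out 1 library gave -0.47 to 0.47 for 20S minus 75Ep, -0.79 to 0.085 for Met minus Hatch and 0.14 to 1.09 for Met minus 75Ep. Without either library that holds its read miR-211 did not pass the filter.

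Numbers of miRNAs called ran over all settings between 5 (without the 20S library at 21°C) and 145 for 20S minus 75Ep, 0 and 33 for Hatch minus 20S, 6 (without the Hatch library at 15°C) and 91 for Met minus Hatch, 123 and 209 for Met minus 75Ep, and 131 and 220 for F, and were 0 throughout for temperature. With rows summed by miRNA number, miR-204 ranked 5th in both Hatch libraries, and 19th at 21°C and 8th at 15°C at Met.

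The stage term pairs the temperatures, and no further pairing was made, since each stage and temperature has 1 library. Pools of 1 library per condition show no variation between fish, and miR-211 is limited by its 2 reads.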
